A study of Mus musculus with 12 samples.

Results

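The transcripts described are those of 10 chemokine genes, Ccl2, Ccl5, Ccl6, Ccl9, Ccl24, Cxcl1, Cxcl10, Cxcl12, Cxcl13 and Cxcl16, in mouse liver. They were taken by symbol from a table of read counts for 55471 gene IDs, and all 10 were found and were among the 13866 genes with enough counts to be tested. The livers came from C57BL/6 mice in 4 groups of 3 samples. The first group ate the standard diet. The second ate a diet labelled MASLD, for metabolic dysfunction-associated steatotic liver disease, and the last 2 ate the same MASLD diet and received Aza-TdC, at doses given only in relative terms as 0.1x and 1x. Aza-TdC is a deoxycytidine analogue that, built into DNA, depletes the maintenance DNA methyltransferase DNMT1. All mice that received Aza-TdC were on the MASLD diet, so the drug without that diet was not examined. The composition of the diet, the duration of feeding, the absolute dose and the age and sex of the mice are not given in the labels used here. They do not say whether samples of a group are different animals, and the p-values therefore measure only the spread between these samples. Below, a liver means 1 such sample.

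Chemokines are small secreted proteins that attract leukocytes through receptors with several membrane-spanning segments. CC chemokines draw mainly monocytes, macrophages, eosinophils and T cells, and CXC chemokines draw neutrophils, T cells or B cells according to the receptor they bind. In the liver they are made by Kupffer cells, stellate cells, sinusoidal endothelium and hepatocytes, and entry of CCR2-bearing monocytes is a well-described feature of steatohepatitis.

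Depth ran from 30213048 to 41852606 counts per library. Levels are given as CPM, counts scaled to a common library size after TMM scaling (a correction of library size for composition), and their errors are standard deviations over 3 samples. Differences are log2 fold changes with standard errors from edgeR's quasi-likelihood test, and passing means an adjusted p under 0.05, by the Benjamini-Hochberg method over the 13866 genes of that comparison. The tissue label was borne out by the summed level of 8 hepatocyte markers, which lay between 85353 and 177834 CPM in every library. A library's deviations from the mean of all libraries followed GC content and transcript length to an unequal extent. This trend held 22.3% of the variance over genes in sample 3 of the 0.1x dose, 18.6% in sample 2 of the 1x dose, 12.1% in sample 5 of the MASLD diet and at most 9.60% in the others. Values with the trend removed are given where they change the call of a chemokine gene, and for the dose differences of Ccl6 and Cxcl12.

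The chemokine transcripts spanned a wide range of abundance. Per kilobase of exon, the mean over the 4 groups was highest for Cxcl12 at 22.6 CPM per kilobase, followed by Ccl9 at 13.5, Ccl6 at 3.23 and Cxcl16 at 2.39. Ccl5 at 1.59 and Ccl24 at 1.52 CPM per kilobase had overlapping ranges of group means, from 1.10 to 1.91 and from 1.14 to 1.96. Cxcl10 at 0.896, Cxcl13 at 0.703, Cxcl1 at 0.400 and Ccl2 at 0.360 CPM per kilobase were the least abundant. The order differed between groups. On the standard diet Cxcl16 (1.97 CPM per kilobase) stood above Ccl6 (1.51). Cxcl13 stood above Cxcl10 on the standard diet (1.08 and 0.954 CPM per kilobase) and at 0.1x (1.21 and 0.982). On the MASLD diet Ccl2 (0.781 CPM per kilobase) stood above Cxcl13 (0.382) and Cxcl1 (0.238). Cxcl12 and Ccl9 together made up between 86.6% and 95.4% of the summed CPM of the 10 genes in each library. The spread between samples of a group followed abundance only in part. The coefficient of variation within a group ran from 3.13% to 8.63% for Cxcl12 and from 45.4% to 75.3% for Ccl2. On the standard diet, however, it was 10.2% for Cxcl1 and 51.0% for the more abundant Ccl24.

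**Figure D1:**
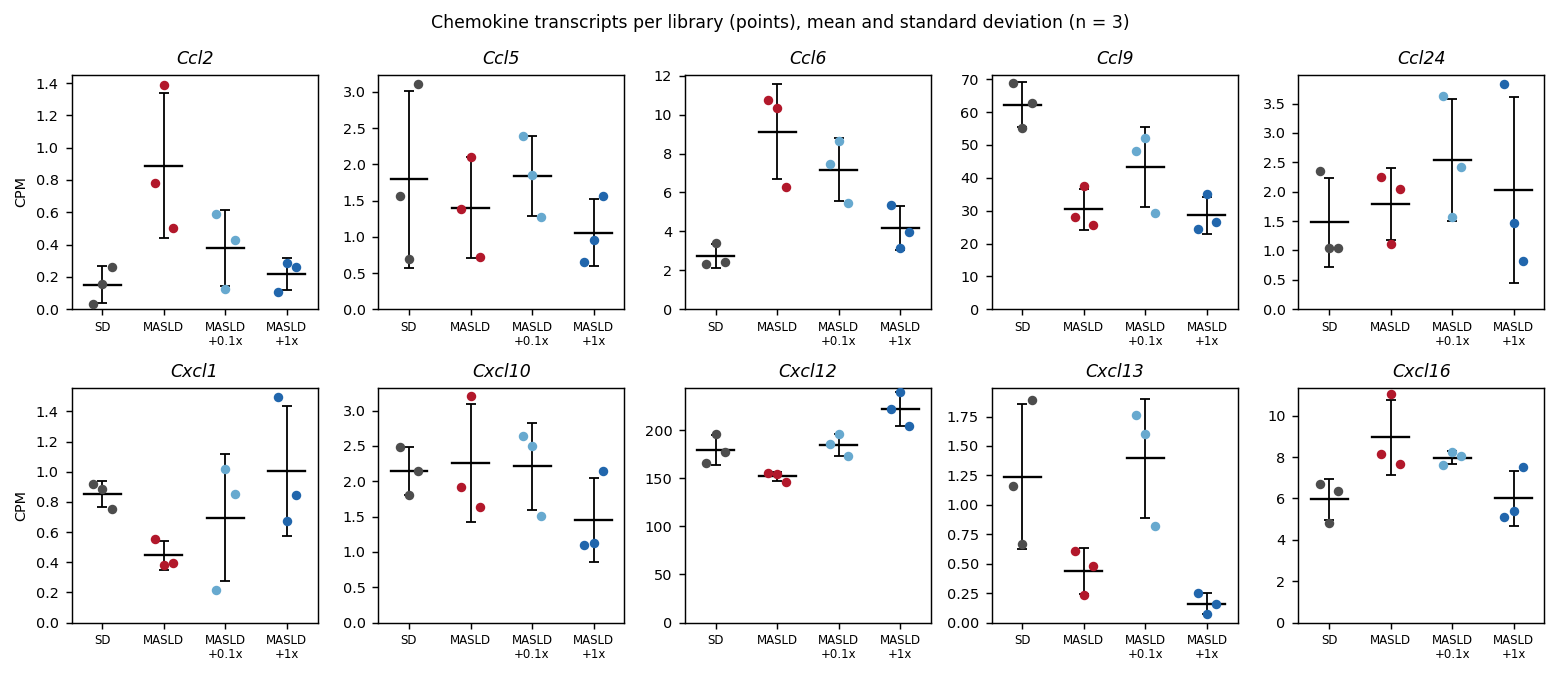
Level of each of the 10 chemokine transcripts in CPM (vertical axis, from 0) in the 12 libraries, by group (horizontal axis, where SD is the standard diet, and +0.1x and +1x are the doses of Aza-TdC on the MASLD diet). Points are libraries, the horizontal line is the group mean and the bar its standard deviation. Ccl6 lay at 2.32 to 3.42 CPM in the standard-diet livers and at 6.31 to 10.7 CPM in the MASLD-diet livers, and Cxcl13 at 0.0720 to 0.252 CPM in the 1x livers.

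Against the standard diet, 5 of the 10 genes passed in the MASLD-diet livers, where 29.5% of all genes tested passed. Ccl2, Ccl6 and Cxcl16 rose, beside 15.6% of all genes that rose, and Ccl9 and Cxcl13 fell, beside 13.9% that fell. The 10 genes therefore did not move in one direction, and their median log2 fold change was -0.08 beside 0.03 for all genes tested. Over all genes, the split of 2164 higher and 1921 lower calls became 1586 and 2869 once the GC and length trend was removed, and the median of all genes moved to -0.10. In 7 of the 10 genes the 3 values of one diet lay wholly above those of the other, which held for 47.9% of all genes tested. At 1x against the MASLD diet the groups lay apart in this way in 5 of the 10 genes, beside 27.8% of all genes tested, and at 0.1x in 2, beside 35.5%. Between the doses this held in 4, beside 30.8%. Against the standard diet it held in 3 at each dose, beside 31.9% at 0.1x and 37.2% at 1x. Bulk RNA holds all cells of the tissue, so a change in the number of cells of a type and a change in RNA per cell cannot be told apart for any of these transcripts.

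Ccl2, also called monocyte chemoattractant protein, attracts monocytes through CCR2. The gene (ENSMUSG00000035385) lies on chromosome 11 from 82035571 to 82037453 on the plus strand of mm10. The 3 standard-diet libraries held 1, 5 and 9 counts of it, which is 0.0341, 0.158 and 0.262 CPM, and the MASLD-diet libraries held 28, 54 and 19 counts, which is 0.778, 1.38 and 0.503 CPM. The diets did not overlap, but each value rests on few counts and sample 4 of the MASLD diet was the highest. The log2 fold change of 2.49 ± 0.67 (adjusted p = 0.0117, edgeR) became 2.01 without that sample (adjusted p = 0.0642, edgeR). The 0.1x livers had 0.589, 0.123 and 0.426 CPM and the 1x livers 0.105, 0.288 and 0.264 CPM. Every 1x liver lay below every untreated MASLD-diet liver, in a comparison where the groups lay wholly apart for 27.8% of all genes tested. The 1x livers overlapped the standard-diet livers. The log2 fold change of the 1x dose against the MASLD diet was -2.03 ± 0.62 and did not pass in edgeR (adjusted p = 0.0928), whereas it passed in 3 of 15 alternative analyses, among them DESeq2 (adjusted p = 0.0395). For the 0.1x dose the log2 fold change was -1.23 ± 0.60 (adjusted p = 0.178, edgeR).

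The transcript of its receptor passed with the diet, as Ccl2 did, and also at 1x against the MASLD diet, where Ccl2 did not pass in edgeR. Ccr2, carried by inflammatory monocytes, measured 0.307, 0.412 and 0.814 CPM on the standard diet and 1.81, 2.69 and 0.768 CPM on the MASLD diet, where it rose with a log2 fold change of 1.76 ± 0.47 (adjusted p = 0.0110, edgeR). The diets overlapped, with 0.768 CPM in sample 5 of the MASLD diet and 0.814 CPM in sample 5 of the standard diet. At the 1x dose Ccr2 measured 0.315, 0.312 and 0.370 CPM, below all 3 MASLD-diet livers, and it fell by 2.39 ± 0.48 on the log2 scale against them (adjusted p = 0.0163, edgeR). The 0.1x livers, at 1.02, 0.616 and 1.08 CPM, overlapped the MASLD-diet livers. Unlike those of Ccl2, the Ccr2 calls were not recomputed with samples left out. Sample 4 of the MASLD diet was the highest in Ccr2, and without it the 431 calls over all genes at 1x against the MASLD diet became 84.

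Ccl6 and Ccl9 are CC chemokines of mouse and related rodents that attract monocytes and other myeloid cells through CCR1. Their genes are neighbours on the minus strand of chromosome 11 of mm10, Ccl9 (ENSMUSG00000019122) from 83572919 to 83578636 and Ccl6 (ENSMUSG00000018927) from 83587882 to 83593087. They moved in opposite directions on the MASLD diet. Ccl6 measured 2.32, 3.42 and 2.41 CPM in the standard-diet livers and 10.7, 10.4 and 6.31 CPM in the MASLD-diet livers, and the diets did not overlap. It rose 3.36-fold, a log2 fold change of 1.75 ± 0.26 (adjusted p = 1.96e-04, edgeR), and passed in all 16 alternative analyses. Ccl9 measured 68.9, 55.2 and 62.7 CPM on the standard diet and 28.0, 37.6 and 25.8 CPM on the MASLD diet, again without overlap. It fell by 1.03 ± 0.21 on the log2 scale (adjusted p = 0.00181, edgeR) and passed in all 16 alternatives.

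The same pair differed again in the treated livers. Ccl6 measured 7.44, 8.66 and 5.44 CPM at the 0.1x dose, overlapping the untreated MASLD-diet livers, and 5.36, 3.17 and 3.99 CPM at the 1x dose, below all of them. It fell by 1.13 ± 0.25 on the log2 scale at 1x against the MASLD diet (adjusted p = 0.0258, edgeR). That call was lost on leaving out sample 3 or 4 of the MASLD diet (adjusted p = 0.132 and 0.137) or sample 4 or 5 of the 1x dose (adjusted p = 0.112 and 0.0839). At the 0.1x dose Ccl6 stayed above the standard diet by 1.40 ± 0.26 on the log2 scale (adjusted p = 0.00188, edgeR), and at 1x the difference from the standard diet was 0.62 ± 0.26 (adjusted p = 0.112, edgeR). The doses themselves differed by -0.78 ± 0.25 for Ccl6, with an adjusted p of 0.0532 in edgeR and of 0.0206 in DESeq2, and by -0.45 with the GC and length trend removed (adjusted p = 0.320, edgeR). Ccl9 measured 48.3, 52.0 and 29.3 CPM at 0.1x and 24.4, 35.1 and 26.5 CPM at 1x. The 1x livers overlapped the untreated MASLD-diet livers, with a log2 fold change of -0.09 ± 0.20 (adjusted p = 0.895, edgeR), and fell by 1.12 ± 0.21 against the standard diet (adjusted p = 0.00165, edgeR). The 0.1x livers lay between, with sample 4 among the low values and samples 1 and 3 above every MASLD-diet liver. Their log2 fold change against the standard diet was -0.53 ± 0.20 (adjusted p = 0.0810, edgeR), which became -0.69 with the GC and length trend removed (adjusted p = 0.0106) and -0.68 without sample 3 (adjusted p = 0.0422).

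The 250 bases upstream of the RefSeq starts of the pair are shown because the neighbouring genes moved in opposite directions on the diet, and with CG dinucleotides, the sites that DNMT1 methylates, in capitals because the drug acts on that enzyme. They lie at chr11:83593088-83593337 for Ccl6 and chr11:83578637-83578886 for Ccl9, both on the minus strand of GRCm38.p6.
Ccl6: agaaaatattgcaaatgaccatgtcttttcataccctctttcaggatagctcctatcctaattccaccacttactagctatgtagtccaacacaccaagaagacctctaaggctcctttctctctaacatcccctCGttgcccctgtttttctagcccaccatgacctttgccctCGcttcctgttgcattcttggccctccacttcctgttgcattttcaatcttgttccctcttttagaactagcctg
Ccl9: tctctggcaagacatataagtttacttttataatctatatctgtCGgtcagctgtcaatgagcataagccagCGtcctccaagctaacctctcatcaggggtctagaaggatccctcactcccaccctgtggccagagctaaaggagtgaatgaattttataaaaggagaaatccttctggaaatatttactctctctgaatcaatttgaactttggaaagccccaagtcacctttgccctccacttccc
Each window holds 2 CG dinucleotides, where the median of 32851 mouse promoter windows of this length is 6 and 29.0% hold 2 or fewer. A local alignment of the pair, including the first 50 bases after the start, matched 59 of 74 columns (79.7%), from position -59 of Ccl6 and from position -18 of Ccl9. Ccl9 holds the letters TATAAA from position -92 and Ccl6 holds them on neither strand. The letters occur in 12.4% of the windows. DNA methylation was not measured here.

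Their receptor, Ccr1, was too low to test, with 55 counts over the 12 libraries and between 0 and 0.256 CPM in each.

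Cxcl16 is made as a transmembrane protein that takes up oxidised lipoproteins and, once shed by the protease ADAM10, attracts T and NKT cells through CXCR6. Its gene (ENSMUSG00000018920) lies on the minus strand of chromosome 11 of mm10, from 70453983 to 70459984. It shares 552 exonic bases with Zmynd15 on the opposite strand, and because the strand setting of the counting is not given in the sources used here, reads of these bases cannot be told apart. The level was 6.69, 4.81 and 6.37 CPM on the standard diet and 8.14, 11.0 and 7.68 CPM on the MASLD diet. The diets did not overlap, and Cxcl16 rose by 0.59 ± 0.19 on the log2 scale (adjusted p = 0.0291, edgeR). Leaving out sample 4 or 5 of the standard diet or sample 4 of the MASLD diet ended the call, with adjusted p = 0.116, 0.0540 and 0.166. At 0.1x the values were 7.62, 8.23 and 8.06 CPM and at 1x they were 5.09, 5.40 and 7.53 CPM. The 1x livers lay below every untreated MASLD-diet liver, with a log2 fold change of -0.58 ± 0.19 that did not pass (adjusted p = 0.114, edgeR). Adam10 rose with the diet by 0.40 ± 0.14 on the log2 scale (adjusted p = 0.0450, edgeR). Cxcr6 was low throughout, at 0.120 to 0.620 CPM in 11 libraries and 1.13 CPM in sample 5 of the standard diet. It fell by 2.10 ± 0.69 on the log2 scale between the standard diet and the 1x dose (adjusted p = 0.0449, edgeR).

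Cxcl12, stromal cell-derived factor, is made by endothelium and stromal cells, signals through CXCR4 and is scavenged by ACKR3. Its gene (ENSMUSG00000061353) lies on the plus strand of chromosome 6 of mm10, from 117168535 to 117181367. The standard-diet livers measured 166, 196 and 177 CPM and the MASLD-diet livers 155, 155 and 147 CPM. All 3 MASLD-diet values lay below the standard diet, with a log2 fold change of -0.24 ± 0.11 that did not pass in edgeR (adjusted p = 0.100) and passed in DESeq2 (adjusted p = 0.0414). Removing the GC and length trend made it -0.53 (adjusted p = 0.00504). The 0.1x livers measured 185, 196 and 174 CPM and the 1x livers 222, 239 and 205 CPM, so that both doses lay wholly above the untreated MASLD diet and the 1x dose wholly above every other group. Against the MASLD diet the transcript rose 1.46-fold at 1x, a log2 fold change of 0.55 ± 0.11 (adjusted p = 0.0145, edgeR). At 0.1x the log2 fold change was 0.28 ± 0.11 (adjusted p = 0.0866, edgeR), which became 0.64 with the trend removed (adjusted p = 0.0193) and passed in DESeq2 (adjusted p = 0.0298). The 1x call was lost on leaving out sample 3 or 4 of the MASLD diet (adjusted p = 0.0634 and 0.0672) or sample 4 of the 1x dose (adjusted p = 0.0556), while the log2 fold change stayed between 0.50 and 0.60 over the 6 samples left out in turn. The difference between the doses was 0.26 ± 0.11 (adjusted p = 0.108, edgeR), and the 1x dose against the standard diet gave 0.31 ± 0.11 (adjusted p = 0.0550, edgeR), which passed in DESeq2 (adjusted p = 0.0308), with a filter at a mean of 1 CPM (adjusted p = 0.0398) and without sample 4 of the standard diet (adjusted p = 0.0451). With the trend removed, the difference between the doses was -0.01 (adjusted p = 0.975, edgeR) and that between the 1x dose and the standard diet 0.10 (adjusted p = 0.613, edgeR). In that fit the 1x dose differed from the MASLD diet by 0.63 (adjusted p = 0.0129, edgeR). Cxcr4 lay between 0.186 and 1.23 CPM and Ackr3 between 0.0310 and 0.503 CPM apart from 1.74 CPM of Cxcr4 in sample 5 of the standard diet, and neither passed in any comparison.

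The promoter window of Cxcl12 at chr6:117168285-117168534, plus strand of GRCm38.p6, is shown with CG dinucleotides in capitals for comparison with those of Ccl6 and Ccl9.
Cxcl12: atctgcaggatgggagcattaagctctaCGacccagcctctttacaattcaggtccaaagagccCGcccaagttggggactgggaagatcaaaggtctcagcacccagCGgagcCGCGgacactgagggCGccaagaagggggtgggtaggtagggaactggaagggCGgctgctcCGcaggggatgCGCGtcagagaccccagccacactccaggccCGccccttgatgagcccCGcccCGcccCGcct
It holds 14 CG dinucleotides at a GC content of 64.4%, and 72.7% of all windows hold as many or fewer.

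Cxcl13 attracts B cells through CXCR5 and marks lymphoid aggregates, and its gene (ENSMUSG00000023078) lies on the plus strand of chromosome 5 of mm10, from 95956951 to 95961068. It differed more between the doses than any of the other genes described here. The standard-diet livers held 34, 21 and 65 counts, which is 1.16, 0.665 and 1.89 CPM, and the MASLD-diet livers held 22, 9 and 18 counts, which is 0.612, 0.231 and 0.477 CPM. The diets did not overlap, although the highest MASLD-diet value lay close to the lowest standard-diet value. Cxcl13 fell by 1.50 ± 0.50 on the log2 scale (adjusted p = 0.0344, edgeR), and lost the call without sample 3 or 5 of the standard diet (adjusted p = 0.0507 and 0.179) or sample 4 or 5 of the MASLD diet (adjusted p = 0.132 and 0.0722), or with the GC and length trend removed (adjusted p = 0.0569).

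The doses of Aza-TdC stood on either side of the untreated MASLD diet. Cxcl13 held 57, 52 and 25 counts at 0.1x, which is 1.77, 1.60 and 0.819 CPM, and 12, 3 and 6 counts at 1x, which is 0.252, 0.0720 and 0.159 CPM. Every 0.1x liver was above every MASLD-diet liver, and the 0.1x livers covered the same range as the standard diet. Against the MASLD diet, the log2 fold change at 0.1x was 1.67 ± 0.49 (adjusted p = 0.0400, edgeR). This call was lost in 5 of the 6 fits that left out a sample, with adjusted p between 0.0651 and 0.141 without samples 3, 4 and 5 of the MASLD diet or samples 1 and 3 of the 0.1x dose, and with the trend removed (log2 fold change 1.21, adjusted p = 0.165). At 1x the log2 fold change against the MASLD diet was -1.40 ± 0.58 (adjusted p = 0.222, edgeR) and one 1x value overlapped. The doses differed from each other by -3.07 ± 0.55 on the log2 scale, 8.40-fold lower at 1x (adjusted p = 0.00634, edgeR), and this held in all 6 fits that left out a sample, with a log2 fold change between -3.58 and -2.72. Against the standard diet, the 1x livers fell by 2.90 ± 0.55 (adjusted p = 0.00206, edgeR), also in all 6 such fits.

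The window of Cxcl13 at chr5:95956689-95956938, plus strand of GRCm38.p6, is shown with CG dinucleotides in capitals because this gene differed most between the doses.
Cxcl13: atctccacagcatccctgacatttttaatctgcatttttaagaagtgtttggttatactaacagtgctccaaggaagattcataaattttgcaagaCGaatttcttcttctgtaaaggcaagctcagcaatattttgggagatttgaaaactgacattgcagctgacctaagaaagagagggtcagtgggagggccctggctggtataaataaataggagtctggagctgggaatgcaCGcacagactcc
It holds 2 CG dinucleotides, the same number as Ccl6 and Ccl9. A search on either strand for the NF-kB motif, GGGA and CC with any 4 bases between, found GGGAGGGCCC from position -63, counted backwards from the RefSeq start, and TATAAA was found from position -46. The NF-kB letters occur in 17.6% of all promoter windows.

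Cxcr5, the receptor, was too low to test, with 71 counts in all. The B-cell and plasma-cell markers were uneven among the standard-diet livers. The 8 markers summed to 23.8 and 7.16 CPM in samples 3 and 4 and to 290 CPM in sample 5, of which Ighm made up 258 CPM. The sums were 6.33 to 11.1 CPM on the MASLD diet, 7.11 to 16.6 CPM at 0.1x and 6.47 to 10.2 CPM at 1x. Sample 5 of the standard diet was also the highest of its group in Cxcl13, Ccl5, Cxcr3, Cxcr4, Cxcr5 and Cxcr6. The part of these markers in the Cxcl13 results was not tested. Without sample 5, the Cxcl13 difference between the 1x dose and the standard diet had an adjusted p of 0.0128 (edgeR), and that between the MASLD and standard diets was -1.05 on the log2 scale with an adjusted p of 0.179 (edgeR).

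Ccl5, Cxcl10, Cxcl1 and Ccl24 passed in none of the 6 comparisons in edgeR, nor in any of their alternatives, DESeq2 included, and 1 of these 24 tests had an unadjusted p under 0.05, that of Cxcl1 at 1x against the MASLD diet. Ccl5, which attracts T cells and macrophages through receptors that include CCR1 and CCR3, measured 1.57, 0.697 and 3.11 CPM on the standard diet and 1.39, 2.10 and 0.715 CPM on the MASLD diet. At 0.1x it measured 2.39, 1.85 and 1.28 CPM and at 1x 0.652, 0.960 and 1.56 CPM, and every pair of groups overlapped. Cxcl10, an interferon-induced ligand of CXCR3, measured 2.49, 1.80 and 2.15 CPM on the standard diet and 1.92, 3.21 and 1.64 CPM on the MASLD diet. At 0.1x it measured 2.63, 2.50 and 1.51 CPM and at 1x 1.09, 1.13 and 2.14 CPM, with a log2 fold change of -0.64 ± 0.33 at 1x against the MASLD diet (adjusted p = 0.342, edgeR). Its gene shares 133 exonic bases with Art3 on the opposite strand, where reads cannot be told apart. Cxcr3 lay between 0.154 and 0.651 CPM in 11 libraries and at 1.19 CPM in sample 5 of the standard diet.

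Cxcl1, a neutrophil attractant that binds CXCR2, held 7 to 71 counts per library. It measured 0.921, 0.886 and 0.756 CPM on the standard diet and 0.556, 0.385 and 0.397 CPM on the MASLD diet, without overlap, but the log2 fold change of -0.93 ± 0.48 did not pass (adjusted p = 0.160, edgeR). At 1x it measured 1.49, 0.672 and 0.846 CPM, all above the MASLD diet, with a log2 fold change of 1.17 ± 0.47 (adjusted p = 0.210, edgeR), and at 0.1x it measured 0.217, 1.02 and 0.852 CPM. Ccl24, an eosinophil attractant that binds CCR3, measured 2.35, 1.04 and 1.05 CPM on the standard diet and 2.25, 1.10 and 2.04 CPM on the MASLD diet. At 0.1x it measured 3.63, 1.57 and 2.42 CPM and at 1x 3.83, 1.46 and 0.819 CPM, so that it varied as much within the 1x group as between groups. The receptors were at the floor of these libraries, with 33 counts of Cxcr2 and 3 of Ccr3 in all. Markers of their target cells were low as well. The 10 neutrophil markers summed to between 1.17 and 4.93 CPM with Mpo at 0 in every library, and the 5 eosinophil markers to between 0 and 0.349 CPM with Epx at 0 in every library.

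The promoters of Cxcl1 and Cxcl10 are textbook targets of NF-kB, and the letters of its motif were found in both windows. Cxcl1 holds GGGAAACACC from position -90 and GGGAATTTCC from position -71, and the match on the opposite strand from position -70 overlaps the latter. Cxcl10 holds GGGAAATTCC from position -159 and GGGACTTCCC from position -103, the latter on both strands, and the interferon response motif, GAAA and GAAA with any 2 bases between, as GAAAGTGAAA from position -213. That motif is held by 2.98% of all windows on either strand. RefSeq windows were matched for 6 of the 10 genes, and none was matched for Ccl2, Ccl5, Ccl24 and Cxcl16.

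**Figure D2:**
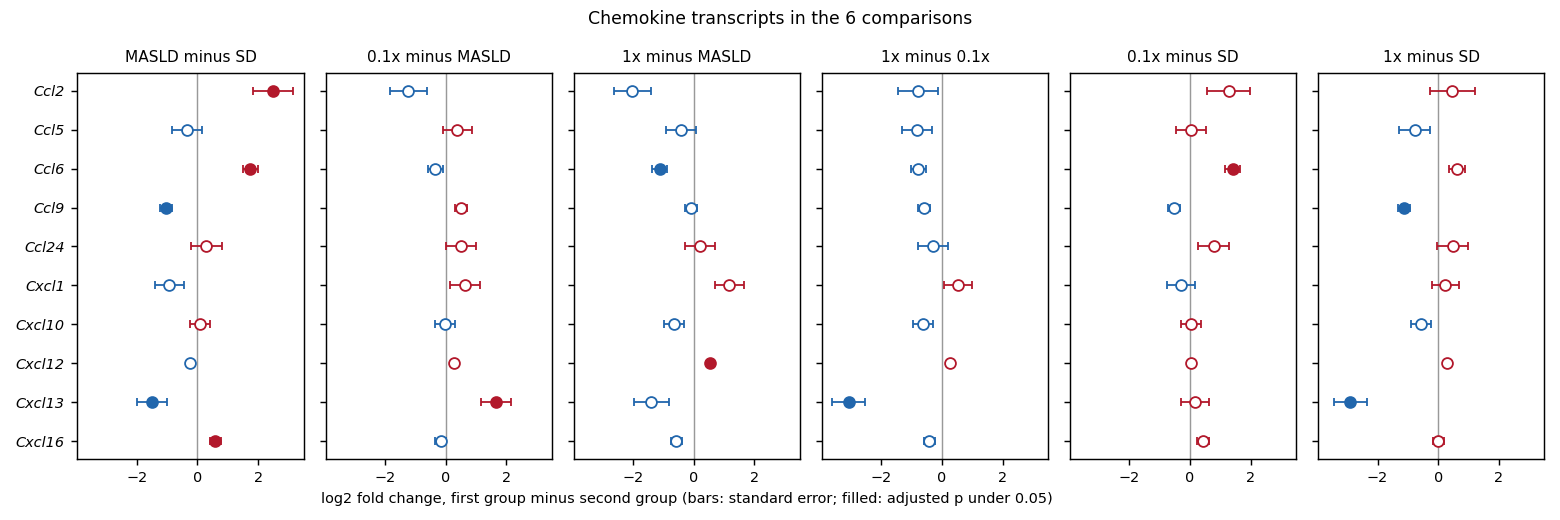
Log2 fold change of each chemokine transcript (horizontal axis, first-named group minus second) in the 6 comparisons, with the standard error as a bar. Filled symbols passed at an adjusted p under 0.05, red is above 0 and blue below. The MASLD diet against the standard diet holds 5 filled symbols, and the other comparisons hold 1 or 2 each.

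In the comparisons that involve Aza-TdC, 1 or 2 of the 10 genes passed. At 0.1x against the MASLD diet 1 of 10 passed (Cxcl13), beside 13.2% of all genes (6.08% higher and 7.09% lower), and the split over all genes of 843 higher and 983 lower calls became 366 and 156 with the trend removed. At 1x against the MASLD diet 2 of 10 passed (Ccl6 and Cxcl12), beside 3.11% of all genes (1.49% higher and 1.62% lower). Between the doses 1 of 10 passed (Cxcl13), beside 13% of all genes (7.13% higher and 5.86% lower), where 989 higher and 813 lower calls became 803 and 1054 under upper-quartile scaling. Against the standard diet 1 of 10 passed at 0.1x (Ccl6), beside 20.7% of all genes (9.85% higher and 10.9% lower), and 2 of 10 passed at 1x (Ccl9 and Cxcl13), beside 19.8% (9.91% higher and 9.84% lower). With the trend removed, 207 higher and 224 lower calls of the 1x dose against the MASLD diet became 387 and 266, and against the standard diet 1374 and 1365 became 1056 and 1795. These comparisons share libraries, so a gene's values in them are not independent of each other. The median log2 fold change of the 10 genes was 0.34 at 0.1x and -0.50 at 1x against the MASLD diet, and -0.60 between the doses, beside medians of -0.022, -0.0048 and -0.0068 over all genes. With the trend removed, the log2 fold change at 0.1x against the MASLD diet was lower for each of the 10 except Cxcl12 and Cxcl16. For Ccl5 it was -0.02 in place of 0.39. The median over all genes was then 0.035, and that of the 10 genes was not recomputed.

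Of 28 other chemokine ligands, 9 were tested, and Ccl21a, Ccl26, Cxcl3, Cxcl15 and Cxcl17 had 0 counts in every library. Ccl21a is 1 of several near-identical copies, so its count depends on how shared reads were treated. With the diet 0 of the 9 passed in edgeR, beside 29.5% of all genes, and 0 in DESeq2, and 1 had an unadjusted p under 0.05. At 1x against the MASLD diet 0 passed in edgeR, beside 3.11% of all genes, and 1 in DESeq2, with 2 at an unadjusted p under 0.05. Ppbp, the platelet basic protein, was the 1 ligand of this list that passed in edgeR. It passed at 0.1x against the MASLD diet, where 13.2% of all genes passed, and against the standard diet, where 20.7% did. It measured 0.278, 0.103 and 0.106 CPM on the MASLD diet and 1.61, 0.524 and 0.950 CPM at 0.1x, and rose by 2.65 ± 0.59 on the log2 scale (adjusted p = 0.0145, edgeR). Cxcl9, an interferon-induced CXCR3 ligand like Cxcl10, was at 10.2 to 31.7 CPM and passed in no comparison.

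Of 23 chemokine receptors, 12 were tested. With the diet 3 rose, among them Ccr2 and Cx3cr1, the fractalkine receptor of monocytes and macrophages, which gained 2.47 ± 0.70 on the log2 scale (adjusted p = 0.0161, edgeR), and none fell. Over all genes tested, 15.6% rose and 13.9% fell with the diet. At 1x against the MASLD diet 2 receptors fell, Ccr2 among them, and none rose, beside 1.62% of all genes that fell and 1.49% that rose. At 0.1x against the MASLD diet 0 receptors passed in edgeR and in DESeq2, with 1 at an unadjusted p under 0.05. Between the doses 0 passed in edgeR and 2 in DESeq2, with 2 at an unadjusted p under 0.05. The shares of all genes that passed in edgeR were 13.2% at 0.1x against the MASLD diet and 13% between the doses.

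**Figure D3:**
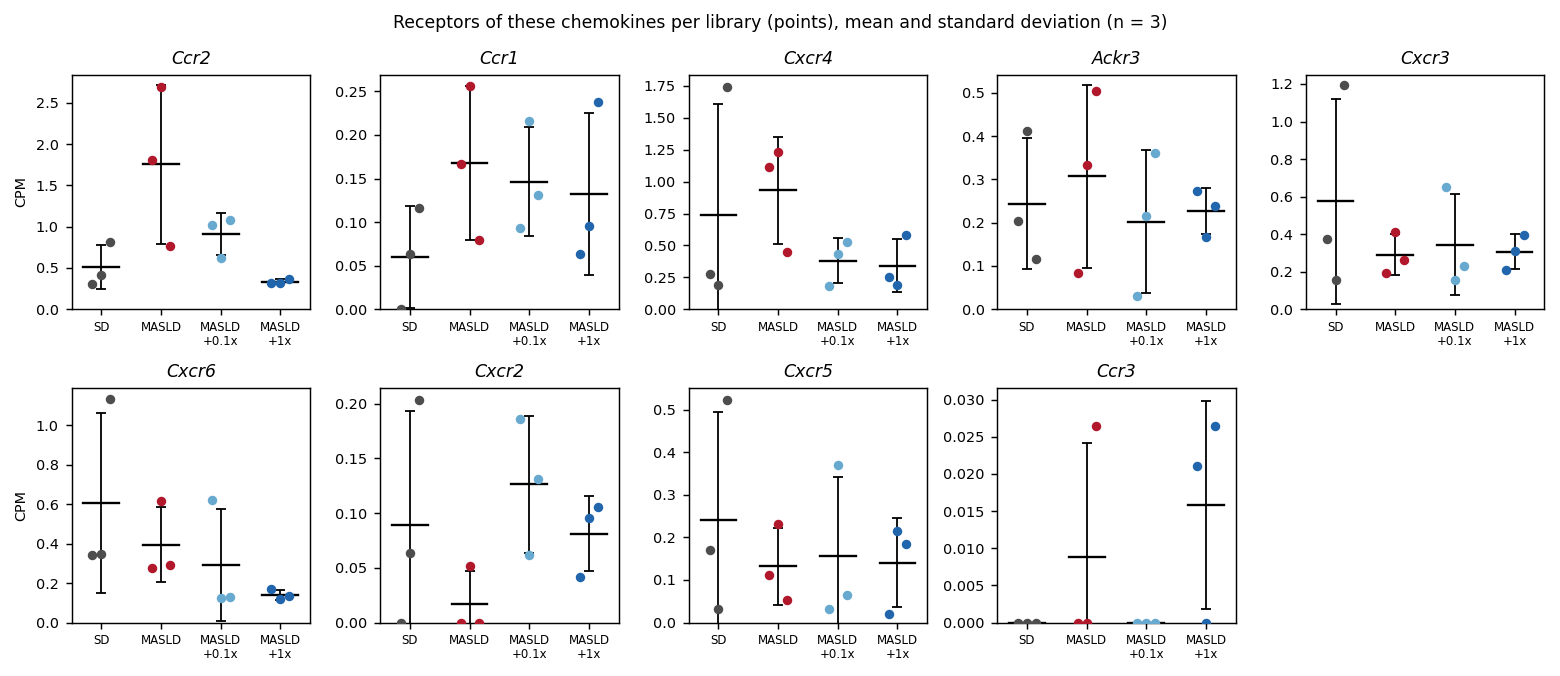
Level of 9 receptors of these chemokines in CPM (vertical axis, from 0) by group (horizontal axis, SD is the standard diet), with points for libraries, a line for the mean and a bar for the standard deviation, drawn from 0 where it would reach below. Ccr2 in the 1x livers lay at 0.312 to 0.370 CPM, below the 0.768 to 2.69 CPM of the untreated MASLD-diet livers.

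Of 28 genes of chemokine processing and of NF-kB or interferon signalling, 25 were tested. Over all genes tested, 15.6% rose and 13.9% fell with the diet, and of these 25 genes 6 rose and 3 fell. Those that rose included Vcam1 and Icam1, endothelial adhesion molecules for leukocytes, at 1.61 ± 0.23 (adjusted p = 1.17e-04, edgeR) and 0.81 ± 0.16 (adjusted p = 0.00139, edgeR) on the log2 scale. Nfkbia, the inhibitor of NF-kB that NF-kB itself induces, fell by 0.67 ± 0.11 (adjusted p = 3.46e-04, edgeR), and Irf1, an interferon-induced transcription factor, fell by 0.71 ± 0.15 (adjusted p = 0.00312, edgeR). Irf7, the interferon-inducible regulator of type I interferon genes, fell by 0.76 ± 0.16 (adjusted p = 0.00317, edgeR), while Tnfaip3, the NF-kB inhibitor A20, rose by 1.39 ± 0.31 (adjusted p = 0.00419, edgeR). At 0.1x against the MASLD diet 2 rose and 3 fell, beside 6.08% of all genes that rose and 7.09% that fell. The 2 that rose were Irf1, by 0.66 ± 0.15 (adjusted p = 0.0158, edgeR), and Irf7, by 0.53 ± 0.16 (adjusted p = 0.0457, edgeR). Among the 3 that fell was Tnfaip3, by 1.41 ± 0.31 (adjusted p = 0.0145, edgeR). Tnfaip3 at 0.1x differed from the standard diet by -0.02 ± 0.33 (adjusted p = 0.968, edgeR). At 1x against the MASLD diet, where 1.49% of all genes rose and 1.62% fell, 2 of the listed genes rose and none fell. These were Nfkbia, by 0.45 ± 0.11 (adjusted p = 0.0358, edgeR), and Irf7, by 1.24 ± 0.17 (adjusted p = 0.00126, edgeR), which left it 0.48 ± 0.16 from the standard diet (adjusted p = 0.0521, edgeR). Irf7 also rose from 0.1x to 1x, by 0.71 ± 0.16 (adjusted p = 0.0157, edgeR), while Cxcl10 and Cxcl9, which interferon also induces, passed in neither comparison.

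Markers of several cell types that make or follow chemokines moved with the diet, and others did not. Over all genes tested, 15.6% rose and 13.9% fell with the diet. Against the MASLD diet 6.08% rose and 7.09% fell at 0.1x, and 1.49% rose and 1.62% fell at 1x. Between the doses 5.86% of all genes were lower at 1x. On the MASLD diet 8 of 10 Kupffer cell markers and 8 of 10 markers of monocyte-derived and lipid-associated macrophages rose, and none fell. The Kupffer list summed to 169 to 268 CPM on the standard diet, 332 to 485 CPM on the MASLD diet, 366 to 456 CPM at 0.1x and 178 to 344 CPM at 1x. The monocyte list, which includes Ccr2, summed to 50.0 to 73.7, 105 to 282, 137 to 158 and 75.1 to 92.3 CPM in the same order. No marker on either list had 0 counts throughout. Sample 4 of the MASLD diet, the highest in Ccl2, Ccr2 and Cxcl16, also held the highest monocyte sum (282 CPM), the highest stellate sum (360 CPM, against 246 and 264 CPM in its group) and the highest cholangiocyte sum (150 CPM, against 39.5 and 46.3 CPM). The monocyte and cholangiocyte lists share Spp1, the osteopontin gene, which alone measured 139 CPM in sample 4. Without Spp1 the monocyte sum of sample 4 was 142 CPM, against 114 and 69.1 CPM in its group, and the cholangiocyte sum 10.3 CPM, against 3.28 and 3.79 CPM. At 1x against the MASLD diet 2 Kupffer markers fell and 1 rose, and 2 monocyte markers fell. Between the doses 5 Kupffer and 2 monocyte markers were lower at 1x. Stellate markers rose with the diet in 7 of 8 and sinusoidal endothelial markers in 5 of 8, and 8 of 8 hepatocyte markers fell. Of the 10 T and NK cell markers tested, none rose and 1 fell with the diet, and 0 passed in edgeR at either dose against the MASLD diet, where DESeq2 called 1 at 0.1x and 0 at 1x and 3 and 1 had an unadjusted p under 0.05. Of 6 B-cell and plasma-cell markers tested, 2 fell with the diet, Ighm and Jchain, and in both sample 5 of the standard diet stood far above its group. Ighm measured 18.4, 5.13 and 258 CPM on the standard diet and 7.78, 8.13 and 4.77 CPM on the MASLD diet. Jchain measured 2.59, 0.792 and 24.1 CPM on the standard diet and 0.806, 0.923 and 0.477 CPM on the MASLD diet. Sample 4 of the standard diet thus lay within the MASLD-diet range in both. Of 3 neutrophil markers tested, 0 passed with the diet in edgeR and in DESeq2, and 0 had an unadjusted p under 0.05, while 1 of them, S100a9, rose at 0.1x against the MASLD diet by 1.49 ± 0.37 (adjusted p = 0.0220, edgeR). The part of these markers in the rise of Ccl2, Ccl6 and Cxcl16, the fall of Ccl9 and the changes at 1x was not tested.

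**Figure D4:**
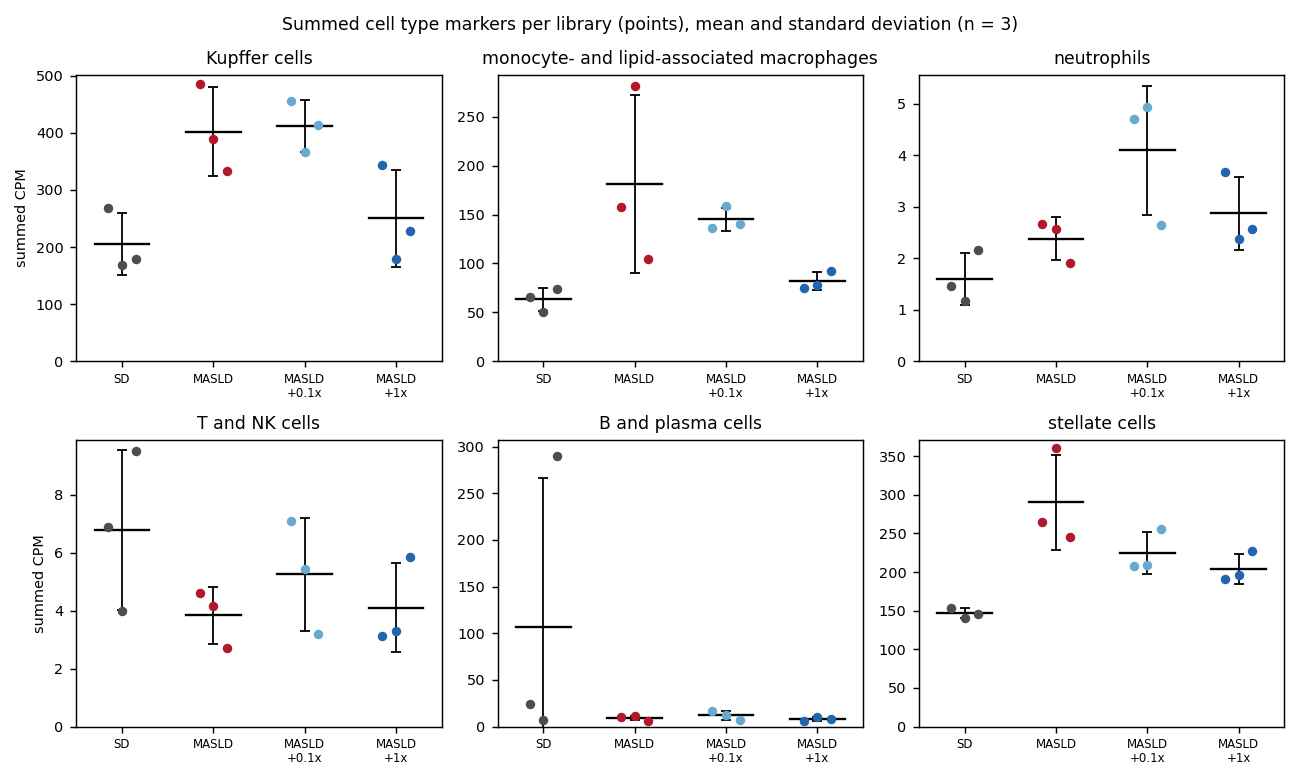
Summed CPM (vertical axis, from 0) of the markers of 6 cell types by group (horizontal axis, SD is the standard diet), with points for libraries, a line for the mean and a bar for the standard deviation, drawn from 0 where it would reach below. The monocyte and lipid-associated macrophage sum lay at 105 to 282 CPM on the MASLD diet and at 75.1 to 92.3 CPM at 1x, and the B-cell sum of sample 5 of the standard diet stood at 290 CPM.

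The genes whose log2 CPM ran most like each chemokine over the 12 libraries were listed by Pearson correlation, as a description over points that share 4 groups and the libraries' own scaling. For Cxcl16 they were Cd14 (r = 0.905), Itgax (r = 0.903) and Lgals3 (r = 0.902), of which Itgax is on the monocyte list and all are macrophage genes. For Ccl5 they were Coro1a (r = 0.889), Sept1 (r = 0.881) and Hmgb2 (r = 0.869). For Ccl6 they were Mtmr11, Sema3b and Abcc5 (r = 0.931, 0.926 and 0.921), for Ccl9 they included Cr1l and Cetn2 (r = 0.941 and 0.932) and for Ccl2 Lmna, Hand2 and Klhl8 (r = 0.914, 0.901 and 0.891). For Cxcl12 they were Fbxo3, Dnajb6 and Coq10b (r = 0.932, 0.925 and 0.924), and for Cxcl13 Lin37, Elp5 and Gatd1 (r = 0.919, 0.912 and 0.907). For the other members the leading gene was Trappc13 for Ccl24 (r = 0.815), Arl6ip5 for Cxcl10 (r = 0.865) and Zbtb16 for Cxcl1 (r = 0.897). Among the 10 chemokines themselves, the highest Pearson correlation over the 12 libraries was that of Ccl5 and Cxcl10 (0.745). Next came Cxcl10 and Cxcl16 (0.671) and Ccl6 and Cxcl16 (0.666). The lowest were those of Ccl2 and Cxcl1 (-0.750) and of Cxcl12 and Cxcl16 (-0.659).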

How the data were processed

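Liver RNA of 12 mouse samples in 4 groups of 3 was sequenced in pairs of reads from stranded mRNA libraries, per the labels' protocols. The authors aligned reads with STAR 2.7.3a to mm10, per the submitters' processing notes, and deposited whole-number counts per gene. Which tool counted them, with what strand setting and gene annotation, is not given in the sources used here, and 2 different instruments are named. Symbols, positions and exon lengths came from GENCODE release vM21 and promoter sequences from RefSeq (GRCm38.p6). Groups were taken from the labels' diet and treatment. In 1 case the title gives replicate 5 where the library name gives 8, and the title was followed.

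The counts were filtered with filterByExpr by group and scaled by TMM, and 1 quasi-likelihood fit in edgeR 4.0.16 (R 4.3.3) held all 12 libraries. Each of 6 comparisons was a two-sided test with Benjamini-Hochberg adjustment over 13866 genes at 0.05. Standard errors were computed from the log2 fold change and the F statistic. The test was run on counts simulated from its own fitted abundances and spreads. These held no GC and length trend and no outlying library, so that check does not cover either. Totals of 30213048 to 41852606 counts per library limit genes with few counts, such as Ccl2. No 2 libraries of a group held identical counts or agreed within sampling noise. The alternatives were upper-quartile or RLE scaling, testing every gene with a count, requiring a mean of 1 CPM, only the 2 groups compared, replicate blocks, removal of the trend with GC content and length, leaving out each library in turn and DESeq2 1.42.0. After the data were seen, a fit was added that leaves out sample 3 of 0.1x and sample 2 of 1x, which followed that trend most closely.

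The 10 chemokines, the gene lists and the markers were chosen with earlier results of these data known. Named were the 10 members, up to 2 genes per list, comparison and direction with the smallest adjusted p among those that passed, the members' receptors, and for each member the 3 genes with the highest Pearson correlation of log2 CPM (prior count 2) among genes with a mean of at least 1 CPM. Adam10 (the protease of Cxcl16), Cx3cr1, Cxcl9, Ighm, Jchain, Spp1, S100a9 and the markers at 0 were named after their values were seen. A receptor and a correlated gene that this rule names are not reported here.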

Additional observations from a re-analysis of the deposited data

How the results depend on the processing

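Genes of the other lists and the markers were not followed singly under the alternatives, apart from counts of those called by DESeq2. Each value of the 10 genes was recomputed under the alternatives, 992 in all. Of these, 922 kept their side of the threshold, 40 lost a call, 30 gained one and none reversed a called direction; 69 changed sign with neither fit past the threshold. The rise of Ccl6 and the fall of Ccl9 with the diet, and the rise of Ccl6 at 0.1x against the standard diet, passed in all 16 alternatives. The number of the 10 genes that passed moved as follows. With the diet it was 5, and 3 with a filter at a mean of 1 CPM, which leaves Ccl2, Cxcl1 and Cxcl13 untested. At 0.1x against the MASLD diet it was 1, and 2 without a filter and with DESeq2, and 0 with the 1 CPM filter and without sample 3 of 0.1x and sample 2 of 1x, a fit added after the data were seen. At 1x against the MASLD diet it was 2, and 4 without a filter. Between the doses it was 1, and 2 with RLE or upper-quartile factors and 3 without a filter or with DESeq2. At 0.1x against the standard diet it was 1, and 2 without a filter, with the trend removed with or without the replicate block, and without those 2 samples. On leaving out each library in turn the number ran from 2 to 5 with the diet, 0 to 2 at 0.1x and 0 to 2 at 1x against the MASLD diet, 1 to 3 between the doses, 1 to 2 at 0.1x and 2 to 3 at 1x against the standard diet.

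Calls gained on leaving out 1 library that were not given above were Ccl9 at 0.1x against the MASLD diet without sample 4 of 0.1x (log2 fold change 0.72, adjusted p = 0.0275, edgeR), and between the doses Ccl9 without sample 4 of 0.1x (-0.81, adjusted p = 0.0194) or sample 4 of 1x (-0.76, adjusted p = 0.0366) and Ccl6 without sample 4 of 0.1x (-0.94, adjusted p = 0.0368). Over all genes, the 431 calls at 1x against the MASLD diet became 1131 without a filter, 1000 with only the 2 groups, 825 with DESeq2, 653 with the trend removed and 84 without sample 4 of the MASLD diet. The 1826 calls at 0.1x against the MASLD diet became 522 with the trend removed and 371 without that sample, the 1802 calls between the doses became 575, 736 with only the 2 groups, and 219 without sample 2 of 1x, and the 2872 calls of 0.1x against the standard diet became 1647 with only the 2 groups. Without sample 4, the 4085 calls with the diet became 2673.

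Replicate numbers are shared between groups, but same-numbered samples did not deviate together (correlations from -0.21 to 0.08). These are correlations of deviations from means of 3 samples, and whether same-numbered samples share a batch or a pairing cannot be told from them. With a replicate block, by title, by library name or with the trend removed, 0 of the 10 genes passed at 0.1x and at 1x against the MASLD diet and between the doses, where 0 to 110 of all genes passed (all in edgeR, with 2 to 4, 4 and 1 to 2 of the 10 at an unadjusted p under 0.05), and 0 passed at 1x against the standard diet with the block by library name. By title, number 1 occurs only at 0.1x and number 2 only at 1x, so these samples add nothing to the comparisons under a block. By library name, number 8 also occurs only at 1x, which leaves sample 4 alone to inform that group. The blocked fits thus rest on fewer samples, and calls lost for that reason cannot be told apart from calls lost to the block itself. Cxcl16 with the diet had an adjusted p of 0.0622 in the block by title.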
